A study of Mus musculus with 28 samples.

Results

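Single mouse morulae of the genotype labelled del were compared with single morulae labelled het. The 4 del embryos (numbered 2, 3, 4 and 6) and the 3 het embryos (1, 5 and 7) were chosen by their sample titles and share the title prefix N2. They are 7 of the 27 embryos that have a column in the deposited tables, out of 28 samples labelled. All 7 are whole morulae of the CD1 strain from sequencing batch 2. The labels spell out neither genotype code, and they do not say which embryos share a mother, so p-values measure only the spread between these embryos. The series title names CTCF, chromatin folding and a metabolic switch on the way to the blastocyst. The other 6 morulae are labelled MZKO under the prefix C50, are also CD1 and batch 2, and entered the same model to estimate the spread between embryos.

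CTCF is a zinc finger protein that binds an asymmetric DNA motif, halts the loops extruded by cohesin and so sets boundaries between chromatin domains. It is also bound at many promoters. The morula is the compacted stage at which outer cells begin to express trophectoderm factors such as Cdx2 and Gata3, while inner cells keep pluripotency factors such as Pou5f1.

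Read totals lay between 12136606 and 20414013 in 12 of the 13 morulae, and del 6 had 1635553. Genes detected ranged from 12158 in del 6 to 16343 in MZKO 1. The morula genes Pou5f1, Tfap2c, Cdh1, Tead4 and Dppa3 were all detected in each of the 7 embryos. One het library stood apart. Spearman correlations over genes were 0.810 to 0.905 among the 4 del embryos and 0.890 between het 5 and het 7. Those of het 1 with the other N2 embryos were 0.664 to 0.796, against 0.867 with MZKO 1. Summed over 8 blood markers, het 1 held 16329 CPM (reads per 1000000 of the scaled library), het 5 and het 7 held 466 and 722 CPM, and the del embryos held 18.6 to 417 CPM. The 8 oviduct markers summed to 2014 CPM in het 1, to 27.2 and 307 CPM in the other het embryos and to 76.6 to 388 CPM in del. The 4 cumulus and granulosa markers in the table summed to 1465 CPM in het 1, to 3.17 and 29.9 CPM in the other het embryos and to 40.1 to 216 CPM in del. Each of the 20 detected markers of these other cell types was highest in het 1 among the 3 het embryos. Values without het 1 and MZKO 1 together are therefore given beside the results they touch, a choice made after seeing the data.

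**Figure D1:**
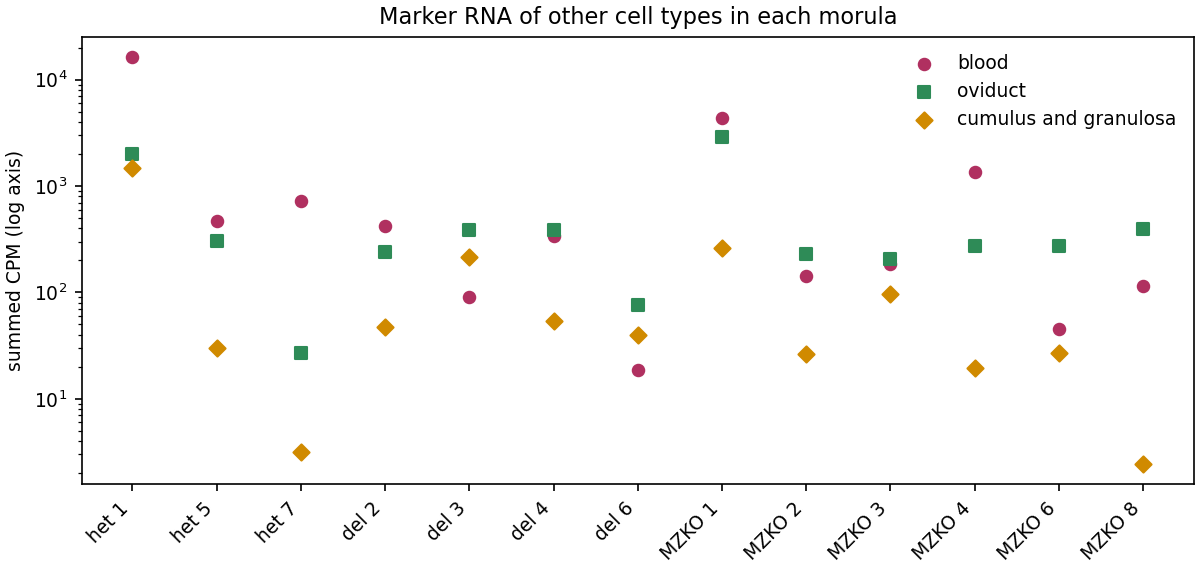
Summed CPM of blood, oviduct, and cumulus and granulosa markers in each of the 13 morulae, on a log axis. Het 1 is highest for blood at 16329 CPM and for granulosa at 1465 CPM, and MZKO 1 is highest for oviduct at 2919 CPM.

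Ctcf RNA was nearly absent from del. The gene (ENSMUSG00000005698) lies on the plus strand of chromosome 8 from 105636568 to 105682922 in GRCm38. It stood at 26.1, 35.1 and 54.6 CPM in het 1, 5 and 7, from 404, 627 and 982 reads. In del 2, 3, 4 and 6 it stood at 0.421, 2.98, 0 and 5.81 CPM, from 5, 42, 0 and 10 reads. Every del embryo lay below every het embryo, and del 6, with the fewest reads, was the highest of the del group. The 0 reads of del 4 allow a level of up to 0.216 CPM, which covers counting error only. Group means were 38.6 ± 14.6 CPM in het (SD, n = 3) and 2.30 ± 2.68 CPM in del (SD, n = 4).

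The verdict on Ctcf depends on how the test is built. An exact permutation test over the 35 splits of the 7 embryos gave a two-sided p of 0.0286 when splits were ranked by the absolute difference of the means, and 0.0571 when the smaller tail was doubled. Each is the smallest p that its definition can give with 4 against 3 embryos. In the limma model across all genes the difference was -3.93 ± 0.97 on the log2(CPM + 1) scale (SE). Its limma p was 0.000741 unadjusted and 0.572 after Benjamini-Hochberg adjustment. The adjusted value corrects for the search over all tested genes, while the unadjusted and permutation values concern Ctcf alone. Which stretch of Ctcf the allele removes is not given in the labels, so a shortened transcript and a missing one cannot be told apart by this level.

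**Figure D2:**
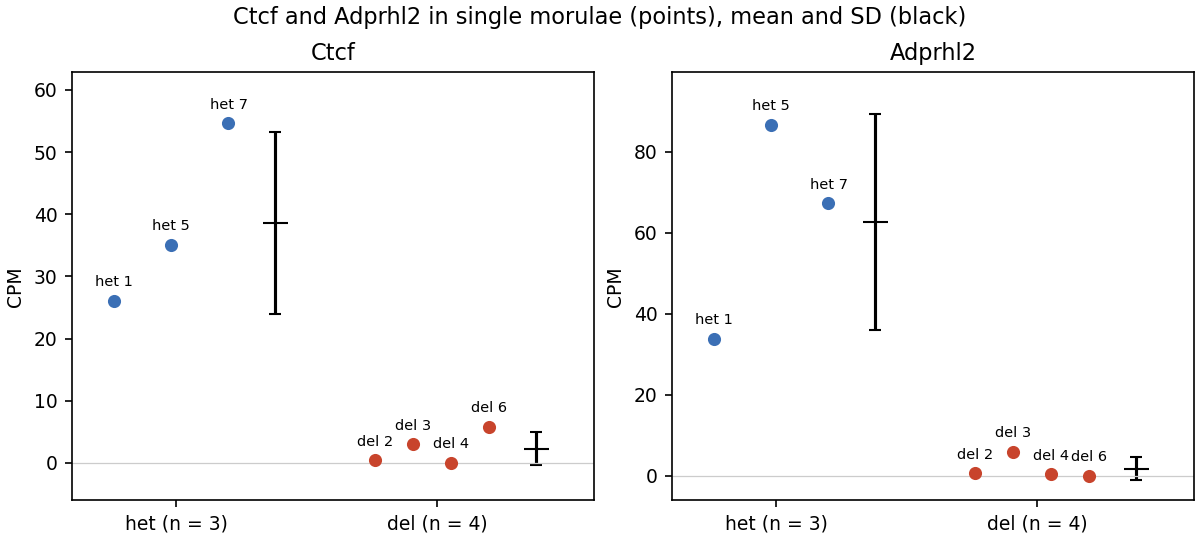
Ctcf and Adprhl2 in CPM, linear axis, with 1 point per morula and the group mean ± SD in black. All 4 del embryos lie below all 3 het embryos for both genes, with del at 0 to 5.81 CPM for Ctcf and 0 to 5.96 CPM for Adprhl2.

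Across the transcriptome, 1 gene passed the threshold. Testing was limited to the 9953 genes that reached 10 CPM in 3 or more morulae. Limma called 1 lower in del (0.01%) and 0 higher (0%) at an adjusted p under 0.05. At an unadjusted p under 0.05 there were 503 genes (5.05%), of which 242 (2.43%) were higher and 261 (2.62%) lower. That share is about what a threshold of 0.05 gives where no gene differs. The 2 groups did not overlap for 294 genes higher in del (2.95%) and for 301 lower in del (3.02%), or 5.98% in all. Of the 35 splits of the embryos, 1 sets del apart in each direction, a share of 0.0286. Both observed shares are near it, so a gene with separate groups is not by that alone a difference. The median difference over all genes was -0.04 on the log2(CPM + 1) scale, with 5274 genes below 0 and 4677 above 0. Under 24 other settings the number of calls ranged from 0 to 10, with 0 calls under 14 of them. Without het 1 and MZKO 1, 9142 genes were tested, and Ctcf was not among them. The 4 genes called there were Adprhl2, Lrrc59, Gm7240 and Taok1. The 9142 genes had a median of -0.0086 with all morulae and -0.09 without those libraries. List medians without those libraries are over the genes still tested, which can be fewer.

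The called gene was Adprhl2, which encodes a hydrolase that removes ADP-ribose from serine residues after DNA damage signalling. It stood at 33.8, 86.6 and 67.3 CPM in het 1, 5 and 7. In del 2, 3, 4 and 6 it stood at 0.674, 5.96, 0.359 and 0 CPM, from 8, 84, 5 and 0 reads. The groups did not overlap, het 1 was the lowest het embryo and del 3 the highest del embryo. The 0 reads of del 6 allow up to 1.74 CPM. The means were 62.6 ± 26.7 CPM in het (SD, n = 3) and 1.75 ± 2.82 CPM in del (SD, n = 4). The difference was -4.89 ± 0.75 on the log2(CPM + 1) scale (SE), with an adjusted p of 0.0318 in limma. Adprhl2 kept its direction under all 24 other settings, but it was called under only 10 of them. Among the settings that ended the call were leaving out del 2, del 4, del 6, het 5, het 7, MZKO 3, MZKO 4 or MZKO 6 and fitting the 7 N2 embryos alone, with adjusted p between 0.0556 and 0.262. A pseudocount of 0.5 CPM, weaker filters and thinned reads also ended it, at 0.0531 to 0.0632, and voom weights gave 0.998.

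Adprhl2 (ENSMUSG00000042558) lies on the minus strand of chromosome 4 from 126316047 to 126321703 in GRCm38. Its promoter is shown with that of Krtcap2, because these are the 2 of the 10 genes of lowest p whose promoters hold a CTCF-like core. The windows run from 250 bases before to 50 bases after the start and come from RefSeq on GRCm38.p6, which had an entry for 7 of the 10 genes. The core searched on both strands was CCNNNAG followed directly by NNGGC, and a stricter form ended in GNGGC, so every match to the second is also a match to the first. Another, narrower pattern was looked at and not kept. The patterns were picked with their hits in these promoters in view, and a match is a description, not a bound site. Capitals mark the match, which begins at position -56 relative to the start in Adprhl2 (chr4:126321654-126321953, minus strand) and at position -71 in Krtcap2 (chr3:89246188-89246487, plus strand). Another RefSeq entry of Krtcap2 (chr3:89246223-89246522) places the same match at -106. Both Krtcap2 windows lie inside the gene as GENCODE annotates it, from 89245966.
Adprhl2: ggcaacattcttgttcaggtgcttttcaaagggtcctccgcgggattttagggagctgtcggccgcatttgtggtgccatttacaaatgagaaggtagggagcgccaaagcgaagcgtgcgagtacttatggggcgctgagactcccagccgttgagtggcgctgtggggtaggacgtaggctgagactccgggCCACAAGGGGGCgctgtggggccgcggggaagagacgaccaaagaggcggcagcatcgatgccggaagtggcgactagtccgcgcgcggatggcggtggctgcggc
Krtcap2: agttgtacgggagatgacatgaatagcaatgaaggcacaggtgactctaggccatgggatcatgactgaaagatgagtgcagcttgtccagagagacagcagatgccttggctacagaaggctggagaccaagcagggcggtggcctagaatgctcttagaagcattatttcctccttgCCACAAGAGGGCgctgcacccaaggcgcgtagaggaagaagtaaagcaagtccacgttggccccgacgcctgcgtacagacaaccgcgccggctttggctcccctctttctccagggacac

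Adprhl2 holds both cores and Krtcap2 holds the first alone. Among all 32851 promoters of that table, 8.61% hold the first core and 3.43% hold the second. The windows of Ctcf, Lrrc59, Ndufb7, Mrps16 and Taok1 hold neither.

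The genes around Adprhl2 were examined after its value was seen. Within 150 kb on either side the table held 7 other genes, of which 4 passed the filter and 0 were called. Trappc3, a subunit of a vesicle tethering complex, stood at 46.1, 84.7 and 74.7 CPM in het and at 79.0, 79.3, 71.6 and 52.8 CPM in del. Its groups overlapped, and its difference was 0.07 on the log2(CPM + 1) scale. Thrap3, an RNA processing factor, differed by 0.51, Ago3 by 0.27 and Ago1 by 0.14, the last being Argonaute proteins that carry small RNAs. Tekt2, on the same strand, ends 418 bases upstream of the Adprhl2 start. It did not pass the filter and stood at 0 to 7.87 CPM in het and at 1.08 to 19.2 CPM in del.

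The other 4 falls of lowest p were Ctcf itself, Krtcap2, Lrrc59 and Ndufb7, and these missed the threshold. Krtcap2, a subunit of the enzyme that attaches glycans to nascent proteins, stood at 65.5, 74.5 and 136.8 CPM in het 1, 5 and 7. In del 2, 3, 4 and 6 it stood at 10.7, 16, 13.7 and 12.2 CPM. The del embryos were close together and the lowest het embryo was well above them, with a difference of -2.66 ± 0.51 (log2, SE) and an adjusted p of 0.148. Lrrc59, a ribosome-binding protein of the endoplasmic reticulum membrane, stood at 240, 593 and 677 CPM in het and at 143, 154, 106 and 149 CPM in del. Het 1 lay nearest the del embryos, and without het 1 and MZKO 1 the adjusted p was 0.000771 in place of 0.148. Ndufb7, an accessory subunit of respiratory complex I, stood at 84.6, 79.5 and 122.9 CPM in het and at 29.4, 30.6, 46.6 and 31.9 CPM in del. Its groups did not overlap either, and its adjusted p was 0.572.

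The 5 rises of lowest p all missed the threshold as well. Mrps16, a protein of the small mitochondrial ribosomal subunit, stood at 30.6, 43.9 and 66.9 CPM in het 1, 5 and 7. In del 2, 3, 4 and 6 it stood at 138, 174, 170 and 192 CPM. All del embryos were above all het embryos, by 1.88 ± 0.33 (log2, SE), with an adjusted p of 0.114. Taok1, a kinase that acts upstream of stress and Hippo signalling, stood at 61.4, 58.0 and 39.1 CPM in het and at 211, 126, 195 and 158 CPM in del. Its adjusted p was 0.148, and 0.0445 without het 1 and MZKO 1. Ly96, the co-receptor of Toll-like receptor 4, stood at 5.42, 8.56 and 2.17 CPM in het and at 39.0, 38.6, 35.5 and 29.0 CPM in del, with an adjusted p of 0.148. The groups of both genes were separate.

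The remaining rises were unnamed transcripts. Gm7240, annotated as a transcribed pseudogene on chromosome 13, stood at 17.4, 0.560 and 0.0556 CPM in het and at 48.8, 56.8, 31.4 and 48.8 CPM in del. Het 1 was far above the other het embryos, and the adjusted p moved from 0.148 to 0.000771 without het 1 and MZKO 1. The long noncoding Gm49701 stood at 10.3, 18.7 and 17.8 CPM in het and at 42.7, 66.3, 51.7 and 63.9 CPM in del, with an adjusted p of 0.21. Reads of such genes are uncertain where they can be split between near-identical copies or with an antisense partner, since the kit does not mark strand.

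**Figure D3:**
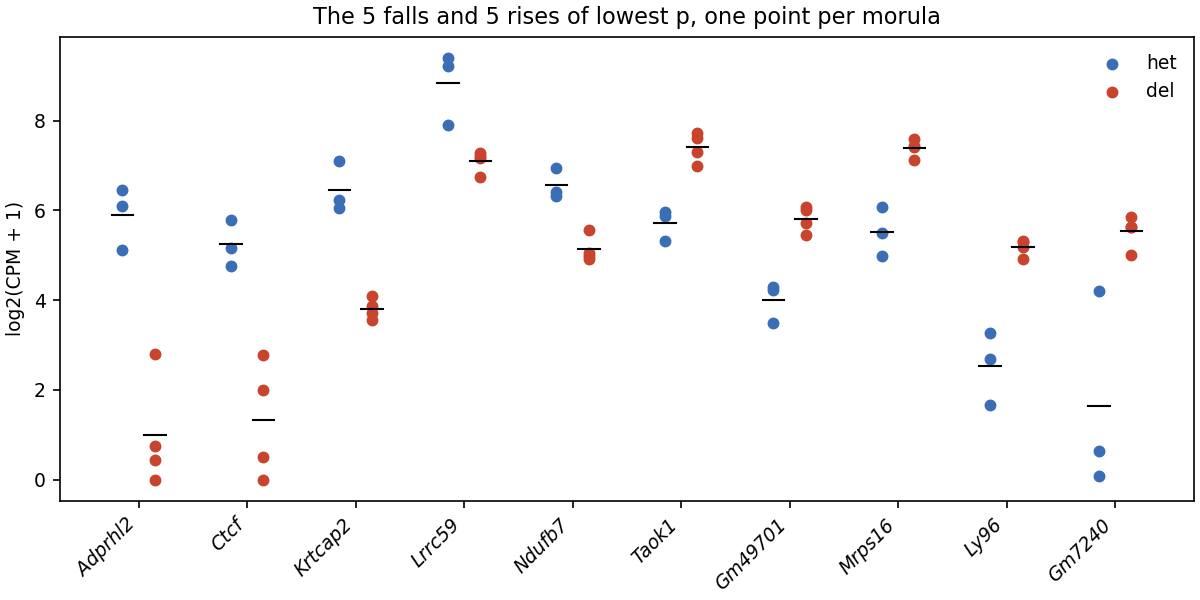
The 5 falls and 5 rises of lowest p in del against het on the log2(CPM + 1) scale, with 1 point per morula and group means as black lines. The groups do not overlap for any of the 10, and 1 of them, Adprhl2, passed the threshold.

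Of the trophectoderm and Hippo list, 32 of 40 genes were tested and 0 were called in either direction. Its median difference was -0.04, as over all genes, but 0.12 against -0.09 over all genes without het 1 and MZKO 1. In del 3 of its genes were separately lower (9.38%, against 3.02% of all genes) and 2 separately higher (6.25%, against 2.95%). Cdx2, a transcription factor of the trophectoderm, stood at 20.1, 63.8 and 76.0 CPM in het and at 8.84, 16.3, 11.1 and 0 CPM in del, where del 6 had 0 reads. Gata3, which acts in the same lineage, stood at 30.5, 30.7 and 121 CPM in het and at 3.12, 4.61, 2.59 and 9.29 CPM in del. Both groups of values were separate, with differences of -2.81 ± 0.81 and -3.20 ± 0.90 (log2, SE), yet the adjusted p-values were 0.63 and 0.629. The third separately lower gene was Klf6, and the 2 separately higher were the Hippo genes Mob1b and Yap1.

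Of the pluripotency and inner cell mass list, 22 genes were tested and 0 were called, with a median of 0.07, or -0.15 without het 1 and MZKO 1. Pou5f1, the pluripotency factor also called Oct4, stood at 493, 630 and 1020 CPM in het and at 793, 1015, 859 and 569 CPM in del. Nanog stood at 20, 41.2 and 125.6 CPM in het and at 57, 37.5, 81.1 and 51.1 CPM in del. Both pairs of groups overlapped. Klf4 alone of the list was separate (4.55%, against 2.95% of all genes), at 30.6 to 37.1 CPM in het and 39.3 to 114 CPM in del. Of 14 primitive endoderm genes 0 were called, and Col4a2 was separately lower (7.14%, against 3.02% of all genes). Col4a2, a basement membrane collagen, stood at 8.57 to 23 CPM in het and 0 to 4.75 CPM in del. The list median of -0.65 was -0.40 over the 10 genes still tested without het 1 and MZKO 1.

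Genes of mitochondrial metabolism gave 0 calls. Of 76 oxidative phosphorylation genes of the nucleus, 65 had a difference below 0, against 5274 of all 9953 genes. The list median was -0.19, or -0.28 without het 1 and MZKO 1. Besides Ndufb7, the complex I genes Ndufa8, Ndufab1, Ndufb3 and Ndufc1 were separately lower, 5 of 76 (6.58%) against 3.02% of all genes. The 15 transcripts of the mitochondrial genome all had a difference above 0, against 4677 of all 9953 genes. Their median was 0.42, or 0.56 without those libraries. Among them mt-Nd2 alone was separate, higher in del (6.67%, against 2.95% of all genes). It stood at 812, 781 and 917 CPM in het and at 1015, 1003, 1827 and 2384 CPM in del. Del 4 and del 6 were the highest. Of 84 genes of the mitochondrial ribosome and translation, Mrpl24, Mrpl38, Mrps2 and Tsfm were separately lower (4.76%, against 3.02% of all genes) and Mrps16 and Mrrf separately higher (2.38%, against 2.95%). The list median was -0.04, or -0.30 without het 1 and MZKO 1.

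Mrps2, a protein of the small mitochondrial ribosomal subunit, stood at 115, 109 and 112 CPM in het 1, 5 and 7 and at 7.58, 19.6, 21.2 and 14.5 CPM in del. The groups were far apart, with a difference of -2.85 ± 0.73 (log2, SE) and an adjusted p of 0.572. Of 33 genes of pyruvate use and the tricarboxylic acid cycle, Fh1, Got1, Slc25a11 and Suclg2 were separately lower (12.1%, against 3.02% of all genes), and the list median was -0.27 with and without het 1 and MZKO 1. Of 26 genes of fatty acid oxidation and lipid binding, 0 were called and Hadh was separately lower (3.85%, against 3.02% of all genes). Hadh, which oxidises hydroxyacyl groups, stood at 134 to 185 CPM in het and 38.3 to 93.5 CPM in del. Of 22 glycolysis genes 17 had a difference below 0, against 5274 of all 9953 genes. The list median was -0.44, but it was 0.34 over the 19 genes still tested without het 1 and MZKO 1.

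The stress list held 41 tested genes with 0 calls, of which 3 were separately lower (Jun, Manf and Xbp1) and 2 separately higher (Ern1 and Pdia3). These are 7.32% and 4.88% of the list, against 3.02% and 2.95% of all genes. Jun, an immediate early transcription factor, stood at 32.6, 40.1 and 74.6 CPM in het and at 9.10, 15.6, 2.95 and 10.5 CPM in del. Its groups were separate and its adjusted p was 0.597. Trp53, which encodes p53, stood at 83.2 to 112 CPM in het and 149 to 208 CPM in del, with an adjusted p of 0.774. It was the only separate gene of its list of 31 (3.23%, against 2.95% of all genes). Of 21 imprinted genes, Gnas, Slc38a4 and Xist were separately lower and Impact separately higher, with 0 calls. These are 14.3% and 4.76% of the list, against 3.02% and 2.95% of all genes. The imprinted list median of -0.36 was -0.11 over the 18 genes still tested without het 1 and MZKO 1. Impact, a regulator of the amino acid starvation response, stood at 19.4, 16.6 and 5.62 CPM in het and at 37.6, 32.5, 37.4 and 45.3 CPM in del. Xist, the RNA that silences an X chromosome, stood at 308 to 357 CPM in het and at 302, 10.4, 243 and 88.8 CPM in del. Del 3 is the only N2 embryo in which the Y-linked genes Ddx3y and Eif2s3y exceeded 10 CPM, so the sexes are unequal between the groups.

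The CTCF partner genes gave no call either. Of 37 cohesin and chromatin architecture genes, 23 had a difference above 0, against 4677 of all 9953 genes. The list median was 0.16, or -0.07 without het 1 and MZKO 1. Yy1 alone was separate, higher in del (2.70%, against 2.95% of all genes). Clustered protocadherins, whose promoter choice depends on CTCF in neurons, had 4 of 56 genes in the table and 0 tested. Among 45 DNA replication genes Fen1, Gins3, Orc1 and Pold3 were separately higher (8.89%, against 2.95% of all genes), with a median of 0.03, or -0.15 without het 1 and MZKO 1. Of 45 mitosis genes Cdc25c alone was separate, higher in del (2.22%, against 2.95% of all genes). The list median was 0.16, or -0.18 without those libraries. Of 81 cytosolic ribosomal proteins and 40 compaction, polarity and junction genes, 0 were separate in either direction, against 5.98% of all genes. Medians of cytosolic ribosomal proteins, proteasome and ribosome biogenesis genes were -0.05, -0.05 and 0.12, and -0.35, -0.35 and -0.14 without het 1 and MZKO 1. The medians of the oocyte list (8 tested), chromatin modifiers (43) and nucleotide and one-carbon genes (30) were 0.16, 0.08 and 0.05, and -0.055, -0.021 and -0.18 without het 1 and MZKO 1. Those of cholesterol synthesis (26) and early cleavage genes (3) were -0.26 and -0.28, and -0.20 and -0.58 without them.

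**Figure D4:**
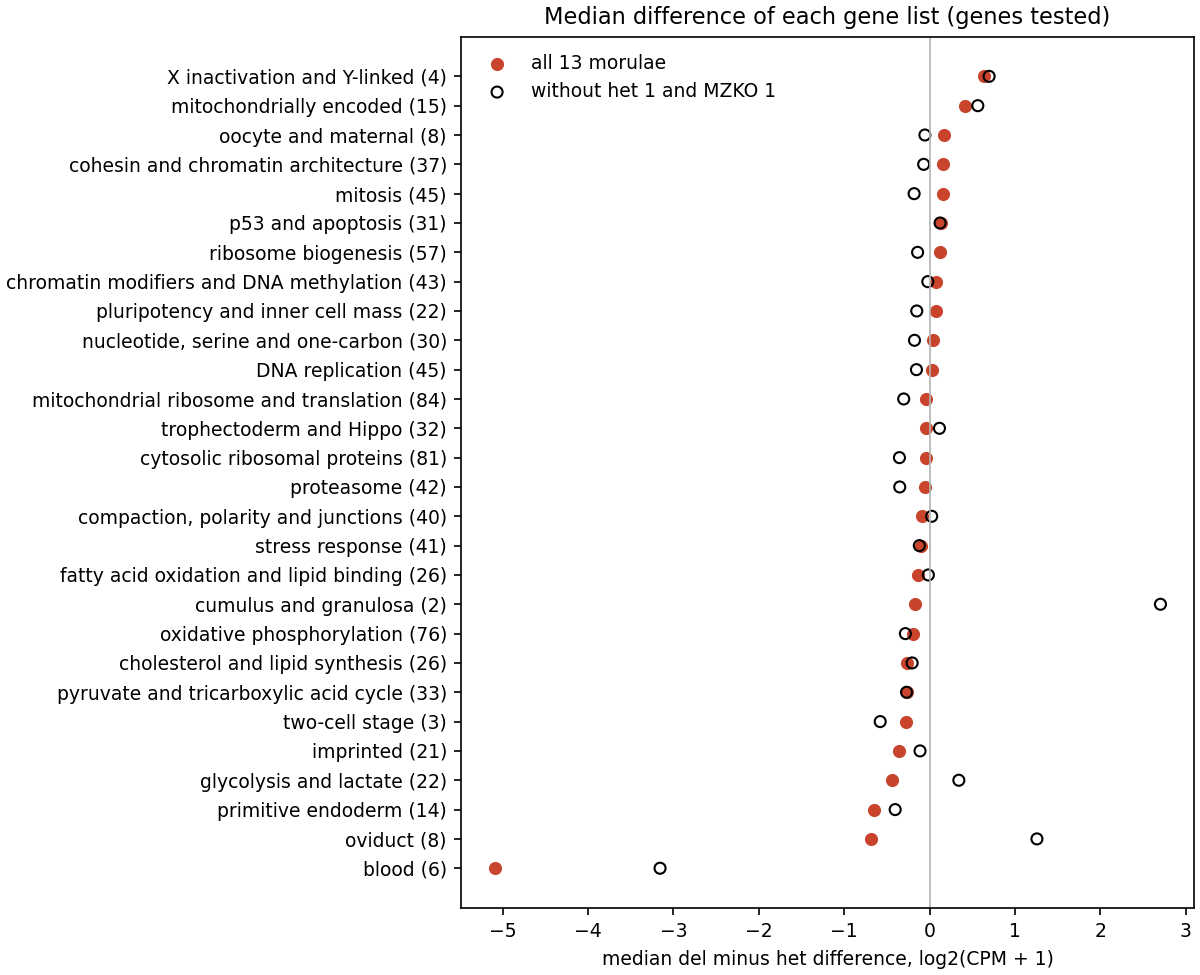
Median del minus het difference on the log2(CPM + 1) scale for each gene list, with the number of genes tested in brackets. Filled points use all 13 morulae and open points leave out het 1 and MZKO 1, and the median changes sign between them for 13 of 28 lists. The bracketed numbers belong to the filled points, and open points can rest on fewer genes.

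Globin RNA was separate between the groups, while the white cell markers Lyz2 and Cd74 overlapped. Hba-a2, an alpha globin, stood at 6561, 169 and 284 CPM in het 1, 5 and 7 and at 16.7, 14, 49.9 and 1.16 CPM in del. Of 6 blood genes tested, 4 globins were separately lower in del (66.7%, against 3.02% of all genes), with 0 calls. The list median was -5.09, or -3.16 without het 1 and MZKO 1. Alas2, an enzyme of heme synthesis in red cells, was at 0 reads in del 3, 4 and 6. Lyz2, a lysozyme of myeloid cells, stood at 599, 21.3 and 0.111 CPM in het 1, 5 and 7 and at 302, 43.3, 207 and 3.48 CPM in del. Cd74, of antigen-presenting cells, stood at 189, 50.3 and 5.95 CPM in het and at 69.0, 17.5, 44.8 and 3.48 CPM in del. For both the groups overlapped, with het 1 highest and het 7 below del 2, 3 and 4. All 3 het embryos held more of the 4 globins than any del embryo, and the part of this RNA in the other differences was not tested.

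The MZKO morulae, the other group with little Ctcf, gave more calls against del than del gave against het. At an unadjusted limma p under 0.05 there were 821 genes for MZKO against del and 503 for del against het. These counts set 6 MZKO embryos beside 3 het embryos, so they are not of equal power. Ctcf ranged from 0 to 8.68 CPM in MZKO with a median of 4.26 CPM. Limma called 18 of 9953 genes between MZKO and del (0.181%), 14 higher (0.141%) and 4 lower (0.0402%) in MZKO. Of the 18, 10 are annotated as pseudogenes. Many of the higher genes, such as Rpl3-ps1, Gm10093 and Gm8420, stood near 0 CPM in every del and het embryo. Such genes passed the filter only through MZKO, the group where they are high. The numbers of calls are therefore not comparable between the 2 contrasts. Of the 5 falls and 5 rises of lowest p in del against het, 0 were called there, and the lowest adjusted p among them was 0.119, for Adprhl2. Without del 3, Adprhl2 was called higher in MZKO (3.42, log2, adjusted p = 0.0222 in limma). Del 3 has the highest Adprhl2 of the del embryos, so leaving it out favours such a call, which adds no support. Adprhl2 was not called without del 2 or without any single MZKO embryo. Adprhl2 ranged from 6.34 to 27.7 CPM in MZKO with a median of 12.8 CPM, above every del embryo, and its difference was 2.82 (log2). The title prefix differs between these groups, so prefix and genotype cannot be told apart.

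Blastocysts labelled MZ_KO (n = 3) and het (n = 4) gave a related contrast in other embryos of a later stage. That comparison was added after the data were seen, parts of its values were known from earlier results, and it was fitted within its own table. All MZ_KO blastocysts carry the title prefix C7 and all het blastocysts N89, so prefix and genotype cannot be told apart there either. Of 9585 genes 1711 were called (17.9%), 673 higher (7.02%) and 1038 lower (10.8%) in MZ_KO. All 5 leading falls of the morula were called lower there. Adprhl2 stood at 81.6 to 136 CPM in het and 0 to 0.0417 CPM in MZ_KO blastocysts, and Krtcap2 at 35.8 to 74.9 and 1.42 to 13.6 CPM. Of the 5 leading rises 4 had the same sign and 1, Mrps16, was called, at 38.4 to 60.4 CPM in het and 163 to 219 CPM in MZ_KO. Mrps2, which missed the threshold in morulae, also stood at 80.1 to 126 CPM in het and 4.42 to 17.8 CPM in MZ_KO. Cdx2, by contrast, was not called there, at 198 to 259 CPM in het and 109 to 235 CPM in MZ_KO.

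The genes called in blastocysts were then read in the morulae. The 911 genes called lower had a median difference of -0.28 in del against het, and 7.46% of them were separately lower, against 3.18% of the 8572 genes tested in both tables. The 640 genes called higher had a median of 0.08, and 2.81% of them were separately higher, against 2.83% of all. These values moved when the libraries that stood apart were left out, which also removed genes from the test. How much of the move came from the lost genes was not tested. Without het 1 and MZKO 1, 840 and 636 of these genes were still tested. Their medians were -0.16 and -0.17, against -0.12 for all genes, so the second turned sign. Genes that fell at least 4-fold in blastocysts (209) had a morula median of -0.80. Without those libraries 161 of them were still tested, with a median of -0.37. Of these 161, 61.5% had a difference below 0, against 59.0% of all genes.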

How the data were processed

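Complementary DNA from single embryos was prepared with the SMART-Seq low input chemistry and sequenced on an Illumina HiSeq, per the labels' protocols. Per the submitters' processing notes, the tools were RSEM 1.3.1, Bowtie2 2.2.9 and cutadapt 1.14 and the builds mm10 and GRCm38. Their settings are not given in the sources used here. For each stage the authors deposited log2 values per gene and embryo in 1 table. These behaved as log2 CPM with 0.5 reads added, and undoing this gave whole reads for 100% of values within 0.01 reads. CPM is relative to the authors' scaled library size. Of 16745 morula genes 16731 matched GENCODE M21.

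Genes reaching 10 CPM in 3 or more morulae were fitted as log2(CPM + 1), which understates the change of low genes, with limma 3.58.1 in R 4.3.3. All 13 morulae entered 1 fit, whose variances were moderated towards a trend. Two-sided p-values were adjusted by Benjamini-Hochberg over 9953 genes, and an adjusted p under 0.05 was a call. The script was tested on simulated data. Ctcf was tested by exact permutation (scipy 1.17.1). "Separately" lower or higher means that the ranges of del and het did not overlap.

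Named genes were Ctcf, up to 12 called genes per direction, the 5 of lowest p where fewer than 5 were called, up to 4 called or otherwise 2 lowest-p members of each list, and a panel. Other separate genes, neighbours and promoter motifs were chosen after their values were seen. The members and lists were chosen with earlier results of these data known. Embryo numbers shared by MZKO and del did not pair the embryos. Alternatives covered the pseudocount, the filter, weights, scaling, depth and each embryo left out.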

Additional observations from a re-analysis of the deposited data

Results flagged for a closer look

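Among 82 sets of 4 del values, 10 held an embryo far from the other 3 by Dixon's test at its usual critical value, and chance gives about 1 in 20. Of these, 6 were in del 3, 3 in del 6 and 1 in del 4. Del 3 was far above the others for Adprhl2 at 5.96 CPM, Col4a2 at 4.75 CPM, Eif2s3y at 34.1 CPM and Star, a steroid transport gene, at 208.7 CPM. Its summed Y-linked markers reached 86.4 CPM and its summed cumulus and granulosa markers 216 CPM. Del 6 was far below the others for its read total of 1635553, for Tle6 at 0 CPM and for Psme1 at 4.06 CPM. Del 4 was far above for Ndufb7 at 46.6 CPM.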

How the results depend on the processing

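The number of genes called in del against het ranged from 0 to 10 over 24 other settings, against 1 as reported. Among planned settings it was 0 with the 7 N2 embryos alone, with a pseudocount of 0.5 CPM, without a filter, with at least 1 CPM in 3 morulae and with reads thinned to the smallest total. It was 1 with a pseudocount of 5 CPM, 2 with CPM from the read totals and 10 with array weights. Leaving out 1 embryo at a time gave 0 to 4 calls: 0 without del 2, 4 or 6, het 5 or 7 and MZKO 3, 4 or 6, 1 without MZKO 2, 2 without del 3 or MZKO 8, 3 without het 1 and 4 without MZKO 1. Unadjusted p under 0.05 was reached by 419 to 961 genes across these fits. Settings added after seeing the data were voom weights (0 calls), the omission of het 1 and MZKO 1 (4), that of het 1, MZKO 1 and del 6 (10), and each MZKO embryo. The cause of these moves was not tested. Planned negative binomial count tests were not run, although whole reads could be recovered, and voom was fitted to those reads instead.

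The Ctcf difference of -36.3 CPM stayed between -42.6 and -28.3 CPM when 1 embryo was left out, at exact permutation p-values of 0.0667 to 0.1, each the smallest such a split allows. With the smaller tail doubled the same -36.3 CPM had an exact permutation p of 0.0571.

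For MZKO against del, the replicate block over the 4 shared embryo numbers gave 20 calls against 18. Deviations of same-numbered embryos correlated at 0.08, -0.12, -0.04 and 0.14, so the numbers did not pair them. Del and het share no number, and no paired analysis was possible because of that. Blastocyst calls fell from 1711 to between 1058 (without MZ_KO 2) and 1603 with 1 embryo left out.

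Of 76 named genes tested, 10 changed sign under some setting, none of them called there, and Eif2s3y came to 0 without del 3. Leaving out 1 embryo at a time gave 0 to 1.71 for Eif2s3y, -1.65 to 2.70 for Star, -1.93 to 0.35 for Enpep, -0.53 to 1.08 for B2m, -0.39 to 0.90 for Nanog, -0.017 to 0.51 for Pou5f1, -0.27 to 0.14 for Tfap2c and -1.17 to 0.021 for Klf5 (log2). Array weights gave 0.40 for Inha and 0.93 for Enpep, and voom gave 0.22 for Inha and 0.0044 for Tfap2c. Star was -0.033 with a pseudocount of 5 CPM and Tfap2c was 0.0091 with CPM from the read totals. Without het 1 and MZKO 1, Enpep was 0.20, Nanog -0.39 and Pou5f1 -0.017, and without del 6 as well Tppp3 was 0.061, Ndrg1 0.83 and Nanog -0.36. Depth limits del 6 most.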
